A study of Mus musculus with 16 samples.

Results

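The unfolded protein response and the integrated stress response were followed through 37 genes in the spinal cord of mice that carry human profilin 1 (hPFN1). The genes were chosen with earlier results of these data known and are grouped by their described roles. They are 7 sensors and transcription factors and 12 targets of the transcription factor ATF4. The others are 14 chaperones and folding enzymes of the endoplasmic reticulum (ER) and 4 genes of ER-associated degradation. All 37 had values in the table of 18167 genes.

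The study sequenced spinal cord RNA of 16 mice, each with 1 library, to compare a model of amyotrophic lateral sclerosis with its transgenic control before symptoms and at the end of disease. Mutant mice, labelled Tg(Prnp-PFN1*G118V)838Kiaei/J on C57BL/6N, carried hPFN1 with the G118V substitution under the *Prnp* promoter. The wild-type controls, labelled Tg(Prnp-PFN1)850Kiaei/J on C57BL/6N, carried human wild-type PFN1, also under the *Prnp* promoter. End stage was set by a timed test of the righting reflex in mutant mice. Young mice, wild-type (WY, n = 3) and mutant (MY, n = 3), were 50 days old and sequenced in batch 1. Old wild-type mice (WO, n = 5) were 190 days old in batch 1 (WO1 to WO3) and 294 days old in batch 2 (WO4 and WO5). Old mutant mice (MO, n = 5) were 198, 190 and 245 days old in batch 1 (MO1 to MO3) and 224 and 175 days old in batch 2 (MO4 and MO5). Age and batch were therefore not separate within WO.

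All mice are labelled male. *Xist*, the transcript of the inactive X chromosome, was at 3.21 in MO5 and at 0.37 or less in the 15 other mice. The Y-linked *Ddx3y* was at 1.95 in MO5 and at 4.06 or more in the others, so MO5 contradicted its label in these genes, and counts of members past the FDR in both comparisons with MO and for age by genotype are given with and without it.

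When unfolded proteins accumulate in the ER, 3 sensors in its membrane respond, encoded by *Ern1* (IRE1), *Eif2ak3* (PERK) and *Atf6*. IRE1 splices *Xbp1* mRNA and ATF6 is cleaved to an active factor, and both raise chaperone transcription. PERK and its sister kinases phosphorylate eIF2alpha, which lowers general translation and raises that of *Atf4*, and ATF4 acts on genes of amino acid supply and on *Ddit3* (CHOP). An RNA level shows neither splicing, cleavage nor phosphorylation.

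Values are log2(1 + FPKM), adjusted by the authors for batch, and the number of fragments behind a gene is unknown. Over the 16 mice the members ranged from a mean of 0.43 (*Trib3*) to 7.58 (*Calr*), with a median of 4.72 beside 2.83 over all genes. The tissue markers were those of cord: *Snap25* averaged 10.43, *Mbp* 12.50 and *Hoxc8* 4.77.

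MY vs. MO asked what differed between mutant mice before symptoms and at end stage. Of the 37 members, 8 passed an FDR of 0.05 (21.6%), beside 4646 of 18167 genes (25.6%). *Atf5*, *Ddit3*, *Nupr1*, *Slc3a2*, *Dnajb9* and *Edem1* were up-regulated in MO, where 2377 genes (13.1%) were. *Hyou1* and *Sel1l* were down-regulated, as were 2269 genes (12.5%). A fold change of at least 1.5 besides was reached by *Atf5* and *Nupr1*, and by 890 genes of the table (4.90%). WO vs. MO asked what differed between the genotypes at the late age. Here 10 members passed (27.0%), beside 5075 genes (27.9%). *Atf4*, *Atf5*, *Ddit3*, *Trib3*, *Nupr1*, *Slc3a2*, *Sel1l* and *Edem1* were up-regulated in MO, with 2730 genes in all (15.0%). *Hyou1* and *Syvn1* were down-regulated, with 2345 genes in all (12.9%). The fold change threshold was again met by *Atf5* and *Nupr1*, beside 836 genes (4.60%). By direction the members were at 16.2% up and 5.41% down in MY vs. MO and at 21.6% up and 5.41% down in WO vs. MO. Totals this near those of all genes are not a result about the members. Both comparisons share the 5 MO mice, so they are not independent of each other. Without MO5, MY vs. MO gave 6 up and 3 down, with *Syvn1* added (FDR 0.0487, range over the alternatives 0.0487 to 1), and WO vs. MO again gave 8 up and 2 down. The MY vs. MO count was 5 without MY1 or without MY3 and 13 without MO4.

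**Figure D1:**
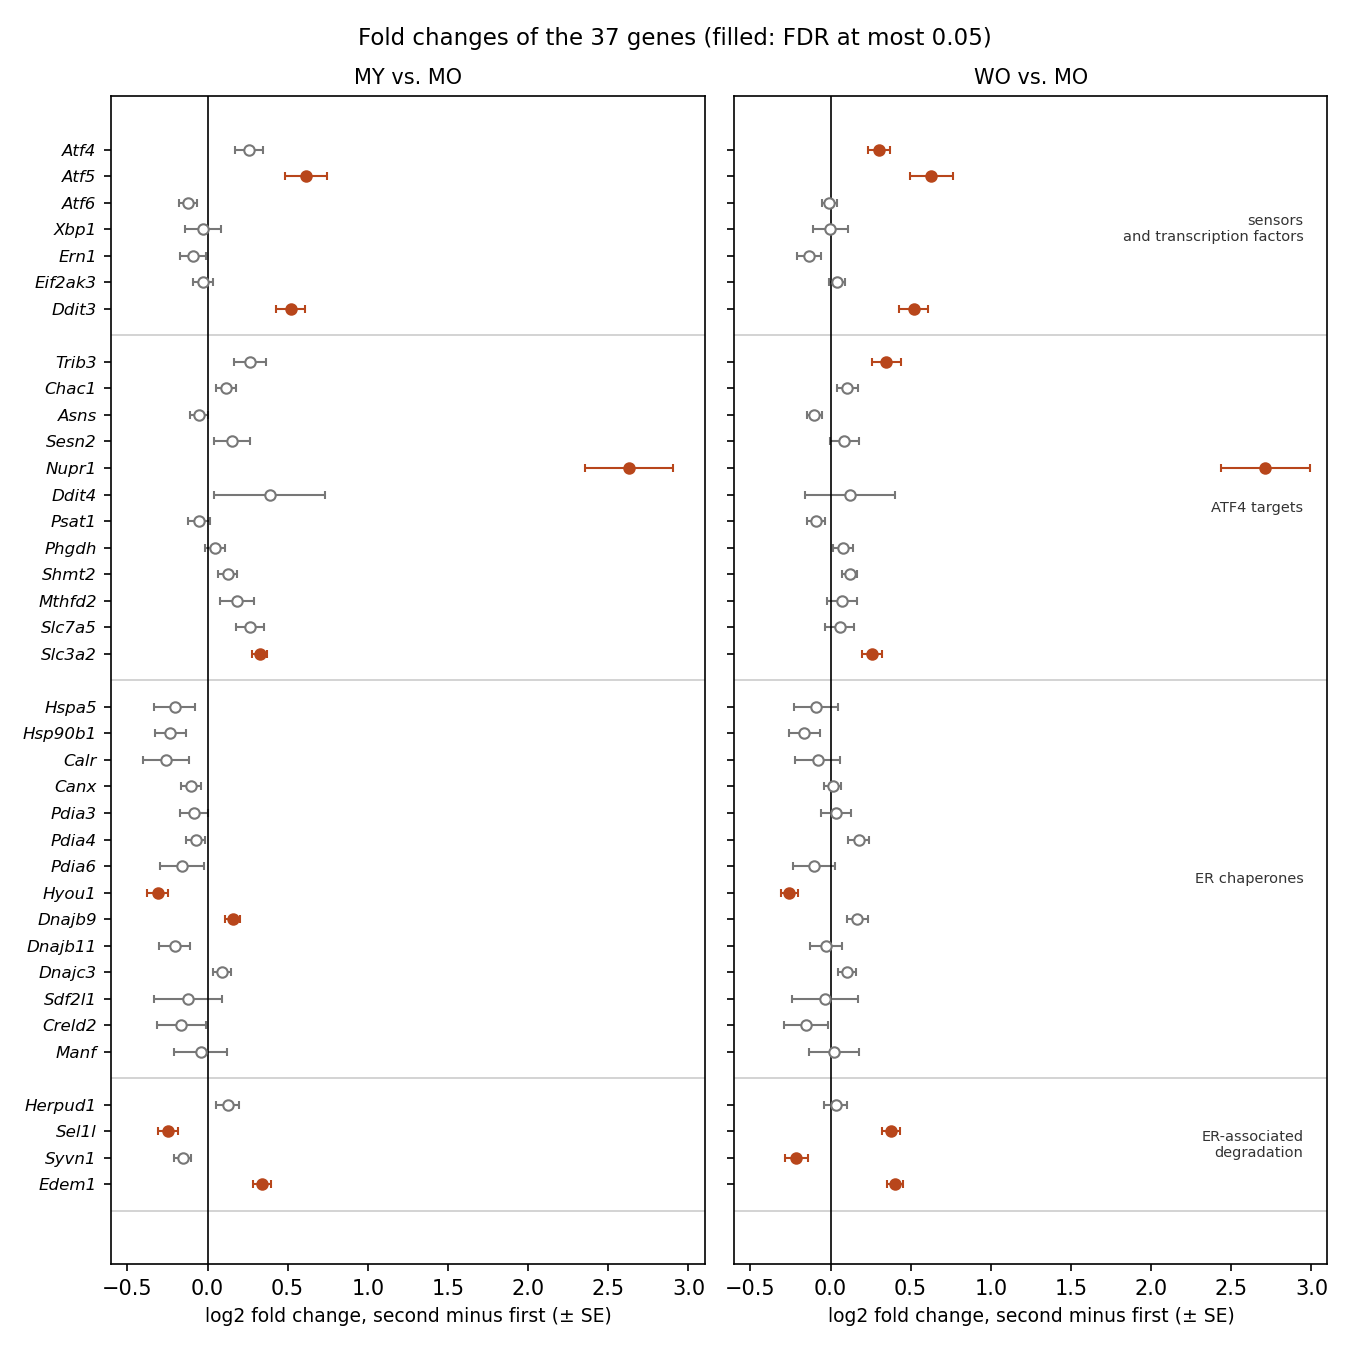
Log2 fold change (MO minus MY, and MO minus WO) with its standard error for the 37 genes, grouped by role, filled where the FDR was at most 0.05. *Nupr1* lies at 2.63 and 2.71, and the other 36 genes lie between -0.31 and 0.63.

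By role, the ATF4 targets and the chaperones had medians of different sign. The 12 ATF4 targets had a median log2FC of 0.17 in MY vs. MO, with 10 genes higher in MO, and 0.10 in WO vs. MO, also with 10 higher. The 14 chaperones had a median of -0.14 in MY vs. MO, with 12 genes lower in MO, and -0.03 in WO vs. MO, with 8 lower. All genes had a median of 0.00 in both. Over the alternatives the chaperone median of MY vs. MO kept its sign but not its size, and it was lower with batch 1 alone. In WO vs. MO leaving out a single mouse could turn the sign of the chaperone median. In the same order of comparisons, 2 and 3 of the 12 ATF4 targets (16.7% and 25%) passed the FDR, and 2 and 1 of the 14 chaperones (14.3% and 7.14%), beside 25.6% and 27.9% of all genes. The mean level of the ATF4 targets was 4.13 ± 0.06 in WY (SD, n = 3), 4.14 ± 0.03 in MY (n = 3), 4.19 ± 0.09 in WO (n = 5) and 4.50 ± 0.14 in MO (n = 5). *Nupr1* carried much of that gap, since the 11 other targets averaged 4.36 ± 0.07 in WO and 4.46 ± 0.12 in MO. MO4 had the lowest of these 11-gene means among the MO mice, 4.29, which was below all 5 WO mice. Chaperones averaged 5.45 ± 0.03 in WY, 5.57 ± 0.06 in MY, 5.48 ± 0.15 in WO and 5.45 ± 0.17 in MO, so WO and MO differed by less than the spread between mice.

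The batches differed in sign for the chaperones and not for the ATF4 targets. In batch 1 the chaperone median of MO minus WO was -0.26, with 11 of 14 genes lower in MO. In batch 2 it was 0.24, with 13 of 14 higher, so the WO vs. MO direction held in batch 1 but not in batch 2. Between the batches 10 of the 14 went from lower to higher, as did 15.5% of all genes. For the ATF4 targets the medians were 0.13 and 0.07, and 9 of 12 genes were higher in MO in each batch. Batch 2 held 2 mice of each old group, which were also of other ages than those of batch 1. Its WO mice were 294 days old and its MO mice 224 and 175 days, so age differed between the genotypes there. No MY mouse was in batch 2, and with batch 1 alone MO minus MY was 2.97 for *Nupr1*, 0.75 for *Atf5*, 0.58 for *Ddit3*, 0.34 for *Slc3a2*, 0.39 for *Edem1*, 0.17 for *Dnajb9*, -0.35 for *Hyou1* and -0.32 for *Sel1l*.

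**Figure D2:**
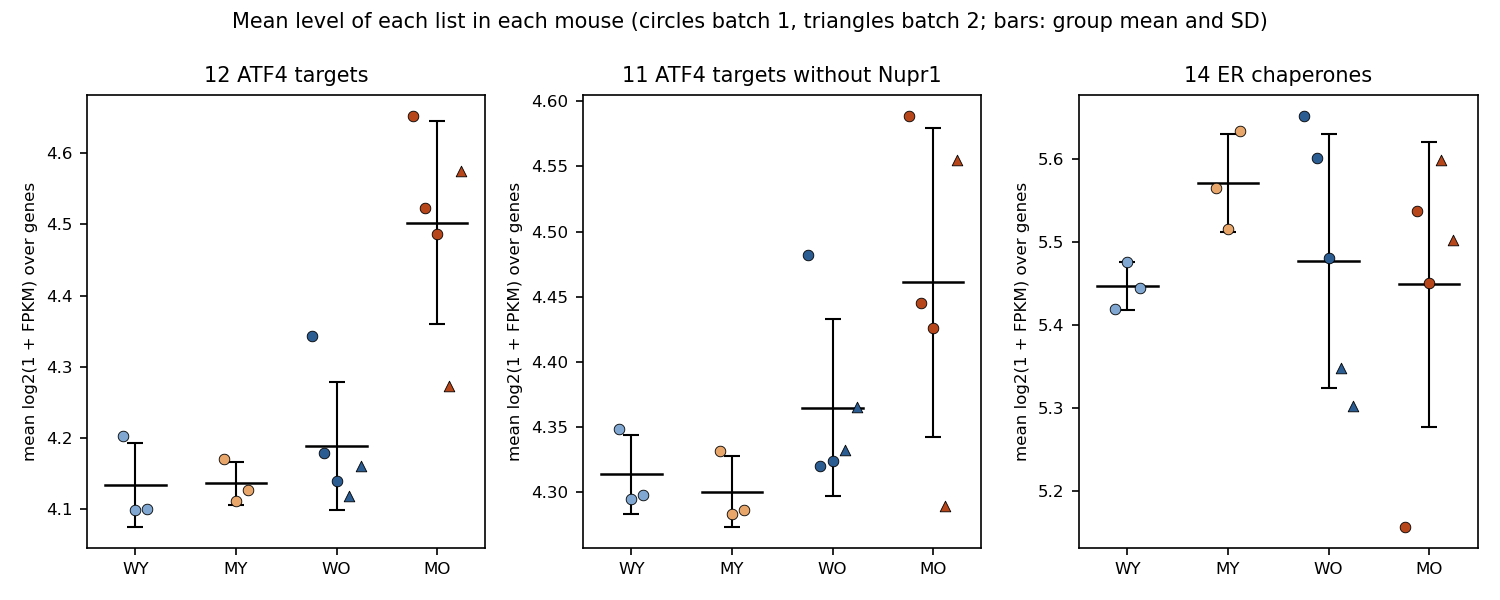
Mean log2(1 + FPKM) per mouse over the 12 ATF4 targets, the 11 without *Nupr1* and the 14 ER chaperones, by group, circles for batch 1 and triangles for batch 2. Chaperone means run from 5.16 (MO1) to 5.60 (MO4) in MO and from 5.30 (WO5) to 5.65 (WO1) in WO.

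Among the sensors and transcription factors, *Atf4* itself (chromosome 15, 80255184 to 80257541) was at 6.63, 6.46 and 6.35 in WY1 to WY3, 6.45, 6.48 and 6.38 in MY, 6.43, 6.37, 6.42, 6.38 and 6.37 in WO, and 6.61, 6.97, 6.64, 6.69 and 6.57 in MO. Every MO mouse was above every WO and MY mouse, but 6.63 in WY1 lay within the MO range. *Atf4* was up-regulated in WO vs. MO with a log2FC of 0.30 (SE 0.07, FDR 0.00755), 0.33 in batch 1 and 0.26 in batch 2. The call was lost with batch 1 alone (FDR 0.077, range over the alternatives 0.00173 to 1). Against MY the *Atf4* log2FC of 0.26 (SE 0.09) did not pass (FDR 0.0621), although it did so without MO2 (FDR 0.0262, range 0.0258 to 1).

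*Ddit3* encodes CHOP, a bZIP factor of the late ER stress response (chromosome 10, 127290774 to 127296288). It was at 5.31, 4.85 and 4.97 in WY, 4.95, 4.91 and 5.06 in MY, 5.17, 4.96, 4.79, 4.88 and 5.05 in WO, and 5.33, 5.70, 5.62, 5.35 and 5.44 in MO. The MO mice were above all 11 others, with WY1 close beneath MO1. *Ddit3* was up-regulated by a log2FC of 0.52 (SE 0.09) in MY vs. MO (FDR 0.00481). WO vs. MO gave *Ddit3* the same 0.52 (SE 0.09, FDR 0.00183), 0.58 in batch 1 and 0.43 in batch 2, and a ratio of mean FPKM of 1.45. Exons of *Ddit3* overlap those of *Mars* on the opposite strand, and *Mars* did not pass in WO vs. MO (log2FC 0.06, FDR 0.434).

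*Atf5*, a bZIP factor controlled in translation much like ATF4 (chromosome 7, 44812256 to 44816658), was at 4.10, 3.83 and 3.87 in WY, 3.93, 3.80 and 4.00 in MY, 4.19, 3.91, 3.59, 4.01 and 3.77 in WO, and 4.84, 4.55, 4.59, 4.19 and 4.45 in MO. The MO mice were above all MY mice, and MO4 met WO1 at 4.19. *Atf5* was up-regulated in MY vs. MO (log2FC 0.61, SE 0.13, FDR 0.00958). Against WO its log2FC was 0.63 (SE 0.13, FDR 0.00497), 0.76 in batch 1 and 0.43 in batch 2. Without MY2 or without MO1 in MY vs. MO, and without WO3 or without MO1 in WO vs. MO, 1 member instead of 2 met both thresholds.

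The ER sensors and *Xbp1* did not pass in either comparison. *Atf6* was at 3.04, 3.39 and 3.23 in WY, 3.39, 3.33 and 3.45 in MY, 3.24, 3.21, 3.35, 3.27 and 3.32 in WO, and 3.38, 3.31, 3.23, 3.18 and 3.26 in MO. These groups overlapped throughout, with a log2FC of -0.12 (FDR 0.142) against MY and -0.01 (FDR 0.934) against WO. *Xbp1*, counted whether spliced or not, was at 4.95, 4.88 and 4.84 in WY, 5.02, 4.90 and 5.08 in MY, 5.11, 5.18, 4.99, 4.78 and 4.81 in WO, and 4.65, 5.16, 4.92, 5.03 and 5.10 in MO. MO1 was the lowest of the 16 mice for *Xbp1*, and the remaining MO mice lay among the wild types. Group means of *Xbp1* were 4.97 ± 0.18 in WO (SD, n = 5) and 4.97 ± 0.20 in MO (FDR 0.998), though MO minus WO was -0.18 in batch 1 and 0.27 in batch 2. *Ern1* was at 1.18, 1.56 and 1.44 in WY, 1.64, 1.57 and 1.64 in MY, 1.61, 1.72, 1.55, 1.63 and 1.79 in WO, and 1.71, 1.38, 1.67, 1.43 and 1.45 in MO. WY1 was lowest, WO5 highest, and the *Ern1* log2FC was -0.09 (FDR 0.486) in MY vs. MO and -0.13 (FDR 0.222) in WO vs. MO, with an FDR of 0.0265 after quantile normalization (range 0.0265 to 1). *Eif2ak3* was at 3.06, 3.41 and 3.38 in WY, 3.30, 3.42 and 3.45 in MY, 3.23, 3.35, 3.32, 3.32 and 3.39 in WO, and 3.43, 3.39, 3.35, 3.21 and 3.44 in MO. Only WY1 stood apart, low, and *Eif2ak3* had a log2FC of -0.03 (FDR 0.815) in MY vs. MO and 0.04 (FDR 0.606) in WO vs. MO.

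The ATF4 target with by far the largest change was *Nupr1*, a small stress-induced chromatin protein (chromosome 7, 126623249 to 126630861). Its level was 2.59, 1.95 and 1.93 in WY, 2.39, 2.22 and 2.38 in MY, 2.82, 2.63, 2.11, 1.77 and 1.90 in WO, and 5.36, 5.38, 5.16, 4.09 and 4.80 in MO. All MO mice were far above the 11 others, MO4 being the lowest. *Nupr1* was up-regulated in MY vs. MO (log2FC 2.63, SE 0.27, FDR 0.000493), with a ratio of mean FPKM of 7.85. Against WO the *Nupr1* log2FC was 2.71 (SE 0.28, FDR 6.9e-05), 2.78 in batch 1 and 2.61 in batch 2, and the ratio of mean FPKM was 8.03. It passed in every alternative of both comparisons, including a test against a fold change of 1.2 that no other member passed.

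*Slc3a2* encodes the heavy chain shared by amino acid transporters (chromosome 19, 8706882 to 8723369). WY mice had 5.67, 5.64 and 5.66, MY mice 5.64, 5.67 and 5.58, WO mice 5.91, 5.66, 5.61, 5.59 and 5.70, and MO mice 5.99, 5.99, 5.92, 5.87 and 6.00. MO was above MY and WY in all mice, while WO1 was above MO4. *Slc3a2* was up-regulated in MY vs. MO by a log2FC of 0.33 (SE 0.05, FDR 0.00168). For WO vs. MO it was 0.26 (SE 0.06, FDR 0.00968), 0.24 in batch 1 and 0.29 in batch 2, and batch 1 alone did not pass (FDR 0.13, range 0.000717 to 1). *Trib3*, a pseudokinase that binds ATF4 (chromosome 2, 152337422 to 152344032), was the least abundant member. Its values were 0.46, 0.39 and 0.31 in WY, 0.41, 0.28 and 0.43 in MY, 0.37, 0.25, 0.16, 0.19 and 0.48 in WO, and 0.79, 0.50, 0.78, 0.39 and 0.73 in MO. MO4 lay inside the MY and WO ranges, and the other MO mice were above them. *Trib3* passed in WO vs. MO (log2FC 0.35, SE 0.09, FDR 0.0165), 0.43 in batch 1 and 0.23 in batch 2. It did not pass in MY vs. MO (0.27, SE 0.10, FDR 0.0856), except, among others, without MO4 (FDR 0.0206, range 0.0206 to 1).

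*Slc7a5*, the light chain partner of *Slc3a2*, passed in no contrast and is given in full by choice after its values were seen. It was at 4.43, 4.51 and 4.44 in WY, 4.33, 4.28 and 4.28 in MY, 4.63, 4.68, 4.47, 4.31 and 4.44 in WO, and 4.65, 4.42, 4.64, 4.36 and 4.74 in MO. The MY mice were below all MO and WY mice, the WY mice lay inside the MO range, and WO and MO overlapped. Against MY, *Slc7a5* did not pass (log2FC 0.27, SE 0.09, FDR 0.056), and it did so without MO2 (FDR 0.0463) or MO4 (FDR 0.0174, range 0.0174 to 1). It passed in 6 of 17 alternatives, also with batch 1 alone, all 4 groups in 1 fit, genes with a mean of at least 1, and a replicate block. Its log2FC was 0.06 (SE 0.09, FDR 0.702) in WO vs. MO, -0.02 in batch 1 and 0.17 in batch 2, and -0.16 (SE 0.04, FDR 0.573) in WY vs. MY. The asparagine synthetase gene *Asns* had a log2FC of -0.05 (FDR 0.568) in MY vs. MO and -0.10 (FDR 0.13) in WO vs. MO. The serine synthesis genes *Psat1* and *Phgdh* were at -0.09 (FDR 0.267) and 0.08 (FDR 0.403) in WO vs. MO. The mitochondrial folate genes *Shmt2* and *Mthfd2* were at 0.12 (FDR 0.0994) and 0.07 (FDR 0.63). The glutathione-degrading *Chac1* had 0.11 (FDR 0.27), *Sesn2* 0.09 (FDR 0.539), and *Ddit4*, which ran from 4.78 to 6.50 over the 16 mice, 0.12 (FDR 0.802). Single mice moved some of these in WO vs. MO, as *Psat1* passed without MO2 (FDR 0.0304, range 0.0304 to 1), *Shmt2* without MO1 (FDR 0.0485, range 0.0485 to 1) and *Sesn2* without MO4 (FDR 0.0468, range 0.0468 to 1).

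**Figure D3:**
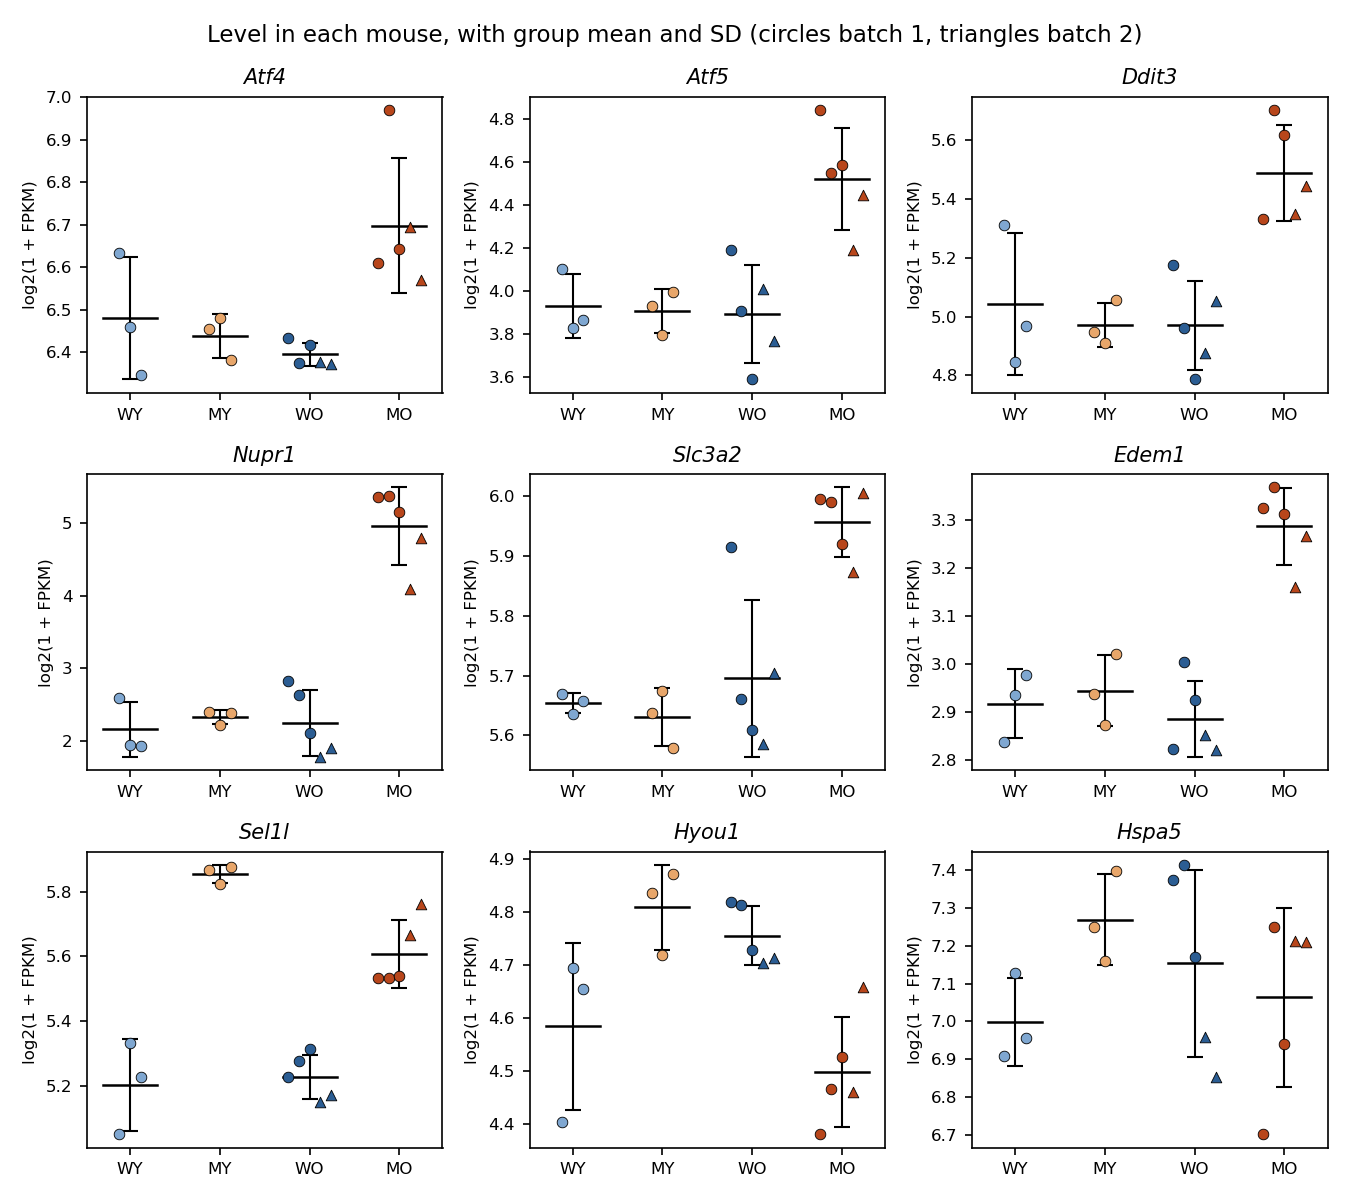
Log2(1 + FPKM) of 9 genes in each mouse by group, circles for batch 1 and triangles for batch 2, with the mean ± SD per group. *Nupr1* is between 4.09 and 5.38 in MO and at most 2.82 in the other groups, whereas *Hspa5* is between 6.70 and 7.25 in MO and between 6.85 and 7.41 in WO.

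*Hspa5*, which encodes the ER chaperone BiP (chromosome 2, 34771970 to 34777547), was at 6.91, 7.13 and 6.96 in WY, 7.25, 7.16 and 7.40 in MY, 7.38, 7.41, 7.17, 6.96 and 6.85 in WO, and 6.70, 7.25, 6.94, 7.21 and 7.21 in MO. MO1 was the lowest of all mice and WO2 the highest, and MO overlapped each other group. All MY mice were above all WY mice, with a log2FC of 0.27 (SE 0.08) that did not pass (FDR 0.646). *Hspa5* had a log2FC of -0.21 (SE 0.13, FDR 0.301) in MY vs. MO. In WO vs. MO it was -0.09 (SE 0.14, FDR 0.69), -0.36 in batch 1 and 0.31 in batch 2.

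*Hyou1*, an ER chaperone of the HSP70 family (chromosome 9, 44379490 to 44392369), was at 4.40, 4.69 and 4.65 in WY, 4.84, 4.72 and 4.87 in MY, 4.82, 4.81, 4.73, 4.70 and 4.71 in WO, and 4.38, 4.47, 4.53, 4.46 and 4.66 in MO. The MO mice were below all MY and WO mice, and WY1 and WY3 lay inside the MO range. *Hyou1* was down-regulated in WO vs. MO (log2FC -0.26, SE 0.05, FDR 0.00449), -0.33 in batch 1 and -0.15 in batch 2. In MY vs. MO its log2FC was -0.31 (SE 0.07, FDR 0.0109), a call lost without MY1 (FDR 0.052) or MY3 (FDR 0.0555, range 0.00444 to 1).

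*Dnajb9*, a J-domain partner of BiP (chromosome 12, 44205559 to 44210326), had 4.86, 4.83 and 4.85 in WY, 4.78, 4.84 and 4.80 in MY, 4.88, 4.93, 4.86, 4.65 and 4.64 in WO, and 4.93, 5.05, 4.93, 5.01 and 4.89 in MO. MO was above MY in all mice by little, and WO2 lay inside the MO range. *Dnajb9* passed in MY vs. MO (log2FC 0.16, SE 0.05, FDR 0.0372) but kept the call in 5 of 17 alternatives (FDR range 0.0152 to 1). It was lost without any single MY mouse (FDR 0.138, 0.0776 and 0.119 without MY1, MY2 and MY3) and without MO2, MO3 or MO4 (FDR 0.0592, 0.057 and 0.0643). Batch 1 alone, batch as a term and a replicate block lost the call too. In WO vs. MO *Dnajb9* did not pass (0.17, SE 0.06, FDR 0.0759), 0.08 in batch 1 and 0.30 in batch 2, and passed without WO2 (FDR 0.0445, range 0.0317 to 1).

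The other 12 chaperones passed in neither comparison. For WO vs. MO the disulfide isomerases *Pdia3*, *Pdia4* and *Pdia6* were at 0.03 (FDR 0.837), 0.18 (FDR 0.0741) and -0.10 (FDR 0.621), and *Pdia4* passed without WO1 (FDR 0.0462) or MO1 (FDR 0.0332, range 0.0332 to 1). The lectins *Calr* and *Canx* were at -0.08 (FDR 0.736) and 0.01 (FDR 0.883). *Hsp90b1* (GRP94) was at -0.16 (FDR 0.25) and, with MY vs. MO, -0.23 (FDR 0.123), which passed without MO4 (FDR 0.0388, range 0.0126 to 1). *Dnajb11* was at -0.20 in MY vs. MO (FDR 0.171) and passed without MO4 (FDR 0.0226, range 0.0226 to 1). It also passed with batch 1 alone, with batch as a term and with a replicate block. In the same comparison *Dnajc3* was at 0.09 (FDR 0.314). *Sdf2l1*, *Creld2* and *Manf* had a log2FC of -0.04 (FDR 0.926), -0.15 (FDR 0.477) and 0.02 (FDR 0.935) in WO vs. MO, each with MO1 as the lowest MO mouse. MO1 was the lowest MO mouse for 12 of the 14 chaperones and MO4 the highest for 9. Among WO mice WO5 was lowest for 11, and WO1 or WO2 was highest for all, 8 and 6 of them.

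In ER-associated degradation, *Edem1* encodes a lectin that passes misfolded glycoproteins on for disposal (chromosome 6, 108828641 to 108859356). It was at 2.84, 2.94 and 2.98 in WY, 2.94, 2.87 and 3.02 in MY, 2.82, 3.00, 2.93, 2.85 and 2.82 in WO, and 3.33, 3.37, 3.31, 3.16 and 3.27 in MO. No MO mouse overlapped any of the 11 others. *Edem1* was up-regulated in MY vs. MO (log2FC 0.34, SE 0.06, FDR 0.00357) and in WO vs. MO (0.40, SE 0.05, FDR 0.000247), with 0.42 in batch 1 and 0.38 in batch 2.

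*Sel1l*, the adaptor of the ER ubiquitin ligase (chromosome 12, 91806043 to 91849157), had another pattern, with 5.05, 5.33 and 5.23 in WY, 5.87, 5.82 and 5.88 in MY, 5.23, 5.28, 5.31, 5.15 and 5.17 in WO, and 5.53, 5.53, 5.54, 5.67 and 5.76 in MO. All 8 mutant mice were above all 8 wild-type mice, which held for 33 of 18167 genes (0.182%) and for 1 member, and the MY mice were above the MO mice. The reverse, all mutant below all wild-type mice, held for 24 genes and 0 members. *Sel1l* was up-regulated in WO vs. MO by 0.38 (SE 0.06, FDR 0.00059), 0.26 in batch 1 and 0.55 in batch 2. In MY vs. MO it was down-regulated (log2FC -0.25, SE 0.06, FDR 0.0197), a call lost without MY1 (FDR 0.0763), MY2 (FDR 0.052) or MY3 (FDR 0.0769, range 0.00195 to 1).

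*Syvn1* encodes the ligase HRD1 itself (chromosome 19, 6046576 to 6053712) and was at 4.01, 4.07 and 4.01 in WY, 4.08, 4.07 and 4.07 in MY, 4.20, 4.24, 3.90, 4.11 and 4.21 in WO, and 3.99, 3.82, 3.95, 3.83 and 4.01 in MO. MO was below MY in all mice, and WO3 lay inside the MO range. *Syvn1* passed in WO vs. MO (log2FC -0.21, SE 0.07, FDR 0.0445), -0.19 in batch 1 and -0.24 in batch 2. This call was kept in 7 of 19 alternatives (FDR range 0.00498 to 1) and was lost without WO1 (FDR 0.0898), WO2 (0.098), WO4 (0.073), WO5 (0.104), MO2 (0.101), MO3 (0.0711) or MO4 (0.0917). It was also lost with batch 1 alone, with batch as a term and with a replicate block. *Herpud1*, which organises the ligase complex, did not pass (log2FC 0.13, FDR 0.243 in MY vs. MO and 0.03, FDR 0.792 in WO vs. MO).

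WY vs. MY asked what differed between the genotypes before symptoms. With limma 0 of 37 members and 1 gene of the table (0.00550%) passed. At an unadjusted p under 0.05 were 8 members (21.6%), beside 1301 genes (7.16%). *Sel1l* had a log2FC of 0.65 (SE 0.08, FDR 0.2) without overlap of the 3 and 3 mice, and passed with all 4 groups in 1 fit (FDR 0.00246, range 0.00246 to 1). The chaperones had a median of 0.13 here, with 12 of 14 higher in MY, as were 8837 genes of the table (48.6%), and 6 of the 14 (42.9%) were at an unadjusted p under 0.05. The ATF4 targets had a median of -0.02. WY vs. WO asked what differed with age in wild-type mice. With limma 0 of 37 members and 204 genes (1.12%) passed. At an unadjusted p under 0.05 were 4 members (10.8%), beside 2447 genes (13.5%). Its medians were 0.04 for both the ATF4 targets and the chaperones.

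Whether the age effect differed by genotype was tested as (MO - MY) - (WO - WY). Of the 37 members 7 passed (18.9%), 6 upward and 1 downward, beside 3210 genes (17.7%), 1903 upward (10.5%) and 1307 downward (7.19%). *Nupr1* differed by 2.54 (SE 0.41, FDR 0.000737) and passed in all 24 alternatives. *Edem1* (0.37, SE 0.08, FDR 0.00549) and *Hyou1* (-0.48, SE 0.10, FDR 0.00424) lost the call in 1 of 24, the test against a fold change of 1.2. *Ddit3* (0.59, SE 0.16, FDR 0.0195) lost it in 4, among them without WY1 and without MY2 (FDR range 0.00893 to 0.408). *Atf5* (0.65, SE 0.20, FDR 0.0325) lost it in 8, among them without WY1, MY1, MY2, MY3, WO5, MO2 or MO3 (range 0.0111 to 0.44). *Slc3a2* (0.28, SE 0.09, FDR 0.0368) kept it in 10 of 24 (range 0.00202 to 1), and *Atf4* (0.34, SE 0.11, FDR 0.045) in 8 of 24 (range 0.0272 to 1). *Slc3a2* was lost without WY1, WY3, MY1, MY2, MY3, WO2, WO3, WO4, WO5, MO2 or MO5, and *Atf4* without WY1, WY2, any MY mouse, any WO mouse, MO3 or MO4. Without MO5 the count was again 7, with *Slc3a2* lost and *Sel1l* (-0.27, FDR 0.0607 with all mice) gained, beside 17.1% of all genes. The count was 3 without WY1 or MY2, beside 12.9% and 13.8% of all genes. It was 4 without MY1 or MY3, beside 12.3% and 12.5%. With batch 1 alone, which holds all young mice, 4 members passed upward and 4 downward, beside 12.4% of all genes. There *Atf4*, *Ddit3* and *Slc3a2* were lost, and *Trib3* (upward), *Hspa5*, *Hsp90b1* and *Sel1l* (downward) were gained. The medians were 0.16 for the ATF4 targets, -0.15 for the chaperones and 0.01 for all genes.

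Of 85 further genes of the same pathways, 18 were up-regulated and 3 down-regulated in MY vs. MO (24.7%), and 24 and 1 in WO vs. MO (29.4%). By direction these were 21.2% up and 3.53% down in MY vs. MO, beside 13.1% and 12.5% of all genes. For WO vs. MO they were 28.2% up and 1.18% down, beside 15.0% and 12.9%. By kind in WO vs. MO, those were 6 up and 1 down of 17 genes of eIF2alpha and its kinases, phosphatase subunits, eIF2B, bZIP factors and the proteases of ATF6, 3 up of 25 other ATF4 targets, 7 up of 25 other ER folding genes, 4 up of 13 other degradation genes and 4 up of 5 death genes. In the same order of kinds, MY vs. MO gave 4 up and 1 down, 3 up and 2 down, 4 up, 3 up and 4 up. Of the 25 other ATF4 targets, 15 were lower in MO than in MY, with a median log2FC of -0.01. The largest decrease among these targets in MY vs. MO was that of *Vldlr*, with a mean of 3.89 in MY and 3.53 in MO (log2FC -0.36). *Atf3*, a bZIP factor induced by stress, was at 0.74, 0.79, 0.90, 0.40 and 0.37 in WO and at 3.76, 3.94, 3.74, 2.89 and 3.30 in MO. It was up-regulated by 2.89 (SE 0.19, FDR 1.5e-05) in WO vs. MO and by 2.62 (SE 0.23, FDR 0.000297) in MY vs. MO. *Cebpb*, a partner of ATF4, was at 2.26, 2.09, 2.05, 1.46 and 1.62 in WO and at 3.45, 3.01, 3.13, 2.69 and 2.69 in MO, with no overlap. Its change was 1.10 (SE 0.18, FDR 0.00143), 1.06 in batch 1 and 1.15 in batch 2. *Gdf15*, a secreted stress factor and ATF4 target, was at 0.15 or less in WO and at 1.04, 1.04, 1.23, 0.89 and 1.01 in MO, and was up-regulated by 1.00 (SE 0.08, FDR 2.16e-05). *Aldh1l2* (mitochondrial folate) passed in WO vs. MO (0.39, FDR 0.0147) but not in MY vs. MO (0.16, FDR 0.387), where it did so without MO1 (FDR 0.0147, range 0.0147 to 1). The heme-regulated kinase gene *Eif2ak1* was down-regulated by -0.14 (FDR 0.0431) in WO vs. MO, a call kept in 6 of 19 alternatives (range 0.0115 to 1) and lost without WO1, WO3, WO4, WO5, MO2, MO3 or MO5. In MY vs. MO *Eif2ak1* was at -0.17 (FDR 0.0246), kept in 10 of 17 alternatives (range 0.0199 to 1) and lost without MY1, MY2 or MY3. *Cebpb* (1.28, FDR 0.00112) and *Gdf15* (0.90, FDR 0.000247) were up-regulated in that comparison too.

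The translocon genes *Ssr4* (0.41, FDR 0.0144) and *Ssr3* (0.27, FDR 0.00241) and the degradation genes *Edem2* (0.25, FDR 0.00243) and *Os9* (0.25, FDR 0.00158) were also up-regulated in WO vs. MO. With batch 1 alone *Ssr4*, *Ssr3*, *Edem2* and *Aldh1l2* did not pass. Over all alternatives of WO vs. MO their log2FC ran from 0.31 to 0.49, 0.24 to 0.29, 0.21 to 0.28 and 0.25 to 0.48. Of the death genes, *Casp12*, a caspase at the ER, was at 1.59, 1.58, 1.68, 1.31 and 1.21 in WO and at 2.42, 2.88, 2.85, 2.50 and 2.45 in MO. *Casp12* was up-regulated by 1.14 (SE 0.12, FDR 8.69e-05), 1.10 in batch 1 and 1.21 in batch 2. *Pmaip1* (NOXA) was up-regulated by 0.55 (SE 0.09, FDR 0.00103). In MY vs. MO, *Casp12* was at 1.06 (FDR 0.000809) and *Pmaip1* at 0.74 (FDR 0.00177). *Ssr3* did not pass there (0.12, FDR 0.102). *Ssr4* and *Edem2* passed there as well (0.49, FDR 0.0135 and 0.25, FDR 0.0113), but not without MY1 (FDR 0.0645, range 0.00215 to 0.438, and FDR 0.0579, range 0.00697 to 1). *Os9* (0.19, FDR 0.00985) was lost without MY1 (FDR 0.0541) or MY3 (FDR 0.051, range 0.00757 to 1). In WY vs. MY 0 of the 85 passed with limma (7 at an unadjusted p under 0.05, 8.24% beside 7.16% of all genes). In WY vs. WO 2 were down-regulated and 0 up-regulated, *Calu* (-0.21, FDR 0.0446) and *Vimp* (-0.21, FDR 0.0492), both named after their values were seen. That is 2.35% down, beside 0.892% down and 0.231% up of all genes.

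Cell type markers are given beside these results, against 15.0% of all genes up-regulated and 12.9% down-regulated in WO vs. MO. Of 10 microglial genes 9 were up-regulated in MO, *P2ry12* being the exception, and their summed FPKM was 689.8 to 1182 in MO beside 201 to 298 in WO, with *Ctss* the most abundant. Of 8 astrocyte genes 6 were up-regulated, with sums of 4077 to 4988 in MO and 2523 to 2759 in WO and *Gfap* the most abundant. Of 7 motor neuron genes 5 were down-regulated, with sums of 91.6 to 124 in MO and 141 to 170.0 in WO and *Prph* the most abundant. Of 6 neuronal genes 4 were down-regulated (*Snap25* the most abundant), as were 2 of 7 oligodendrocyte genes, whose *Mbp* ran from 5.36 to 14.22 over the 16 mice. *Cd79b* was up-regulated among the 4 plasma and B cell genes in the table, all of them averaging less than 0.5 with *Jchain* the most abundant. *Hoxc8* was down-regulated and the most abundant of 5 Hox genes of cord position. Of the 5 meningeal fibroblast genes (*Pdgfra* the most abundant) 0 passed with limma, with 1 at an unadjusted p under 0.05 (20%, beside 38.5% of all genes). In MY vs. MO, 9 of 10 microglial genes, 4 of 8 astrocyte genes and 1 of 4 plasma and B cell genes were up-regulated, beside 13.1% of all genes. Of the 7 oligodendrocyte genes 4 were down-regulated, as were 4 of 6 neuronal, 5 of 7 motor neuron and 2 of 5 Hox genes, beside 12.5% of all genes. Whether these shifts account for any change of *Nupr1*, *Ddit3* or the other members was not tested. In bulk RNA, fewer cells and less RNA per cell cannot be told apart.

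The 37 genes lie on 15 chromosomes, and 11 have an exon that overlaps an exon of another gene. *Atf5* overlaps *Nup62* on the opposite strand, which had a log2FC of 0.14 (FDR 0.0479) in MY vs. MO and 0.13 (FDR 0.0677) in WO vs. MO. It also overlaps *Il4i1*, at 0.34 (FDR 0.0588) and 0.34 (FDR 0.0845). *Manf*, which passed in neither comparison, overlaps *Rbm15b* on the same strand, so strand would not separate them. *Rbm15b* was at -0.11 (FDR 0.168) in MY vs. MO and -0.20 (FDR 0.00738) in WO vs. MO. The library kit was stranded, and whether strand was used in counting is not stated in the sources used here.

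Promoters, read as 250 bases before and 50 after the transcription start in RefSeq on GRCm38.p6, could be matched for 33 members, and *Atf6*, *Slc7a5*, *Hyou1* and *Manf* were not matched. The C/EBP-ATF response element (CARE), read as TGATGNAA on either strand, was in 4 of 11 ATF4 targets, in *Herpud1* and in 3.97% of 32851 promoters. Of its carriers among the targets, *Nupr1* and *Trib3* passed in WO vs. MO, beside 27.9% of all genes. *Chac1* and *Asns* did not. *Atf5*, *Ddit3* and *Slc3a2* passed without the element in these 300 bases. The windows are shown as a description of these promoters, with capitals for the element.
Trib3, chr2:152344023-152344062, + strand: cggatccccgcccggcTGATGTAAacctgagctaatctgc
Chac1, chr2:119351033-119351072, - strand: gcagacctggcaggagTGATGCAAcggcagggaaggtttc
Asns, chr6:7693209-7693248, - strand: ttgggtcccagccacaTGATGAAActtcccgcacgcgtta
Nupr1, chr7:126625557-126625596, + strand: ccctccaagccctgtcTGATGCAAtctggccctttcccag

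The ER stress response element (ERSE), read as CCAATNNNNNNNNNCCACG, was in 7 of 12 chaperones, in *Syvn1* and in 0.119% of all promoters. *Hsp90b1* holds 2 copies. The lists were made by described roles, so the shares of ERSE and CARE are a description and were not tested. The element of XBP1 (UPRE), read as TGACGTGG, was in 0 of the 33 members and in 0.676% of all promoters. ERSE-II, read as ATTGGNCCACG and added after seeing the data, was in *Dnajb11* and *Herpud1* and in 0.0365% of all. None of the 7 ERSE carriers among the chaperones passed the FDR in either comparison with MO, *Hspa5* and *Calr* included. Of all genes 25.6% passed in MY vs. MO and 27.9% in WO vs. MO. A count over so few genes is not a result about ERSE. *Syvn1*, also a carrier, passed in WO vs. MO (-0.21, FDR 0.0445). Capitals mark ERSE, and the windows are shown because the copies differ between genes in the 9 bases between both ends.
Hspa5, chr2:34772009-34772059, + strand: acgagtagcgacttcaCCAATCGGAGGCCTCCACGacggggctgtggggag
Hsp90b1, chr10:86705622-86705672, - strand: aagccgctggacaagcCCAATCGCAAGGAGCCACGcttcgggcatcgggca
Hsp90b1, chr10:86705517-86705567, + strand: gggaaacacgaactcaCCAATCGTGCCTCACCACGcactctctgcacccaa
Calr, chr8:84847059-84847109, + strand: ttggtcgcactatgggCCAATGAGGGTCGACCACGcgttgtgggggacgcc
Canx, chr11:50325784-50325834, - strand: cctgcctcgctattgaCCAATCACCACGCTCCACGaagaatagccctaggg
Pdia6, chr12:17266475-17266525, + strand: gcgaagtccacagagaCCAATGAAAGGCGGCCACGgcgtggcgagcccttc
Dnajc3, chr14:118937811-118937861, + strand: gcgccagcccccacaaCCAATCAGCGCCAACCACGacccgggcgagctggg
Creld2, chr15:88819504-88819554, - strand: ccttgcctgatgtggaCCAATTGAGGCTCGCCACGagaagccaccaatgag
Syvn1, chr19:6046516-6046566, + strand: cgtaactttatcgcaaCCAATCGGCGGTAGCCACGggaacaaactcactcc

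The whole 300 bases are given for *Nupr1*, the member with the largest change, and for *Hspa5*, the chaperone gene of BiP, each on the strand of its gene. Capitals mark CARE, here read on the other strand, in *Nupr1* and ERSE in *Hspa5*.
Nupr1, chr7:126625421-126625720, - strand: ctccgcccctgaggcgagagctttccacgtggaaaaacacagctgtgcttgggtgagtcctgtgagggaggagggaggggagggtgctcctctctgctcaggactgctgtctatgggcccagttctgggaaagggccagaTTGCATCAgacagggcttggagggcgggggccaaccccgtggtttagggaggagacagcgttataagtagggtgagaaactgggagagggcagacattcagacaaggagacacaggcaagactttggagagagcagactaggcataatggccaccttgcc
Hspa5, chr2:34771840-34772139, + strand: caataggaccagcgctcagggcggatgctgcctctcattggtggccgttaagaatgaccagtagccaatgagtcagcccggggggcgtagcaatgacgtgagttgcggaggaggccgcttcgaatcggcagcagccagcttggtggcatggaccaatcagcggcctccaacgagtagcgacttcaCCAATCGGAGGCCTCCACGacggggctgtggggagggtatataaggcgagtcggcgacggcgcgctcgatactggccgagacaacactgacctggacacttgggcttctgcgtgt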

How the data were processed

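Spinal cord RNA-Seq of 16 transgenic mice was analysed from the table of 18167 genes that the authors deposited, with 1 library per mouse and groups, ages and batches from the labels. Its log2 values of 1 + FPKM were made by the authors, who per their methods trimmed the reads (Trimmomatic), mapped them on mm10 (TopHat), computed FPKM (Cufflinks), dropped genes at 0 in 8 or more mice and removed batch differences with ComBat. Versions of these tools and the covariates given to ComBat are not stated in the sources used here. Below 0 lay 915 values and 0 values were exactly 0, and medians over genes ran from 2.81 to 2.89 per mouse. The fragments behind a gene are unknown, so precision rests on the spread between mice.

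Each comparison was fitted on its 2 groups with limma 3.58.1 in R 4.3.3 (lmFit, eBayes, two-sided) over all genes, as second minus first group, with a Benjamini-Hochberg FDR of at most 0.05 over all genes and, where stated, a fold change of at least 1.5 (0.585 on the log2 scale). The age by genotype contrast was fitted on all 4 groups. The code was tested on simulated data. The 37 members and the lists of other genes were chosen with earlier results of these data known, and no test was made over a list. Named in full were the 4 members of each role with the largest change past the FDR in either comparison with MO. So were 7 members whatever they did (*Atf4*, *Ddit3*, *Xbp1*, *Ern1*, *Eif2ak3*, *Atf6*, *Hspa5*), *Slc7a5* (added after its values were seen) and every member past the FDR in another contrast. From each list of further genes, the 2 largest increases and decreases past the FDR in WO vs. MO were named. *Vldlr*, *Calu* and *Vimp* were named after their values were seen. Alternatives were batch 1 alone, batch as a term, all groups in 1 fit, a pseudocount of 0.1, genes with a mean of at least 1 (13530), quantile normalization, limma's intensity trend, its treat at a fold change of 1.2, a replicate block and leaving out each mouse. For medians of lists a mean of at least 3 was also tried. Added after seeing the data were batch 2 medians, means without the gene of largest change, and ERSE-II. Positions are those of GENCODE M21 (GRCm38). Python 3.11.15, pandas 2.3.3 and matplotlib 3.10.9 were used. Read counts, the human transgene and protein sequences were not analysed here, and 1 list of marker genes is not reported here.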

Additional observations from a re-analysis of the deposited data

Results flagged for a closer look

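In 74 groups of 5 mice examined for a single outlying mouse, 3 had one by Dixon's test, which chance marks in about 1 in 20 groups. All 3 were chaperone genes in MO1. *Pdia6* was at 5.19 in MO1, with the next MO mouse at 5.66 and the highest at 5.82. *Sdf2l1* was at 3.26, with the next at 4.01 and the highest at 4.19. *Creld2* was at 2.98, with the next at 3.60 and the highest at 3.66. *Pdia6*, *Sdf2l1* and *Creld2* did not pass the FDR in any comparison.

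The age effect of 7 genes differed between mutant and wild-type mice by the test of the difference itself, 18.9% of the members beside 17.7% of all genes, so the count is not a result about the members. *Atf4* kept the call in 8 of 24 alternatives and *Slc3a2* in 10 of 24. The difference, (MO - MY) - (WO - WY), was 2.54 for *Nupr1*, 0.65 for *Atf5*, 0.59 for *Ddit3*, 0.37 for *Edem1*, 0.34 for *Atf4*, 0.28 for *Slc3a2* and -0.48 for *Hyou1*. Group means of *Hyou1* were 4.58 in WY and 4.76 in WO, and 4.81 in MY and 4.50 in MO. The cause was not tested.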

How the results depend on the processing

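For the count of members past the FDR, treat at a fold change of 1.2 left 1 gene, *Nupr1*, in MY vs. MO (8 before), in WO vs. MO (10 before) and in the age by genotype contrast (7 before). Of all genes 4.16%, 4.62% and 3.35% passed with treat. Treat also left 1 of the 2 genes that met both thresholds in each of MY vs. MO and WO vs. MO, by its stricter null hypothesis. Leaving out 1 mouse gave 5 to 13 members in MY vs. MO, 9 to 12 in WO vs. MO and 3 to 9 for age by genotype. With both thresholds it gave 1 to 2 in both comparisons, and a pseudocount of 0.1 gave 3 in WO vs. MO. In WY vs. MY 1 gene, *Sel1l*, passed with all 4 groups in 1 fit, and in WY vs. WO 0 passed in the 17 alternatives run. The ATF4 target median of 0.17 in MY vs. MO became 0.37 as a mean over genes, and 0.16 as a mean without *Nupr1*. In WO vs. MO 0.10 became 0.31, and 0.10 without *Nupr1*, so *Nupr1* accounts for those differences by construction. Leave-one-out medians ran from 0.14 to 0.23 and from 0.06 to 0.14. The chaperone median in WO vs. MO (-0.03) became -0.26 with batch 1 and 0.24 with batch 2 (chosen after seeing the data), and -0.10 to 0.04 without single mice. In MY vs. MO it ran from -0.25 to -0.04 over the alternatives. The cause was not tested. Quantile normalization gave 7 up and 5 down in MY vs. MO, 9 and 4 in WO vs. MO and 6 and 3 for age by genotype. Of all genes 28.9%, 31.7% and 19.8% passed with it. With a replicate block by mouse number, 10 members passed in MY vs. MO, 9 in WO vs. MO, 0 in WY vs. WO, 0 in WY vs. MY and 7 for age by genotype. With the block 20.6%, 22.7%, 0.374%, 0.0055% and 15.8% of all genes passed. Batch 1 alone gave 4 up and 4 down for age by genotype, beside 12.4% of all genes. Mice share only a number, and as a check of this pairing, correlations of equal numbers across groups ran from -0.207 to 0.377, own numbers correlating best for 3 of 3 in MY vs. MO, 1 of 5 in WO vs. MO, 2 of 3 in WY vs. WO and 0 of 3 in WY vs. MY. Batch as a term could not be fitted for WY vs. MY, all of batch 1. For single genes past the threshold, 147 of 1068 alternatives were no longer past it. For those not past it, 56 of 3290 alternatives were newly past it. Together 4155 of 4358 kept their side. The sign changed in 0 of the 1068 alternatives of results past the threshold and in 158 of the 3290 of results not past it, among them *Xbp1* and *Sdf2l1* in WO vs. MO. Groups of 3 mice and unknown fragments per gene limit what small changes can be seen.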

Other observations

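*Sel1l* is the last of 5 genes that follow each other in the table on chromosome 12 (90998492 to 91849157), each with all 8 mutant mice above all 8 wild-type mice. They were looked at after the values of *Sel1l* had been seen. The mean of the mutant minus that of the wild-type mice was 0.38 for *Cep128*, 0.27 for *Tshr*, 0.44 for *Gtf2a1*, 0.46 for *Ston2* and 0.48 for *Sel1l*. The nearest genes of the table on either side, *Dio2* and *Flrt2*, overlapped between the genotypes. In WO vs. MO the log2FC was 0.43 for *Cep128* (FDR 0.000322), 0.28 for *Tshr* (FDR 0.00494), 0.55 for *Gtf2a1* (FDR 1.46e-05) and 0.44 for *Ston2* (FDR 0.000211). In WY vs. MY it was 0.29 (FDR 0.398), 0.24 (FDR 0.555), 0.26 (FDR 0.573) and 0.49 (FDR 0.468), none of them past the threshold. Of the 33 genes that separated the genotypes this way, 6 lie on chromosome 12, which holds 595 genes of the table. The strains are labelled as lines 838 and 850, and the cause of these differences was not tested.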
